A study of Mus musculus with 6 samples.

Results

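The genes described here are 9 listed as sperm-egg fusion membrane proteins, namely Izumo1, Izumo2, Izumo3, Izumo4, Spaca6, Tmem95, Dcst1, Dcst2 and Spesp1. Other genes needed for fusion, such as Llcfc1, are outside this set. The 9 are called fusion genes below, without a fusion role being given for each. They were chosen by name, and each symbol was matched to 1 Ensembl identifier through GENCODE mouse release M21, giving 9 of the 55536 genes counted. All 9 passed the filter on low counts, which left 21465 genes for testing. The libraries are whole-testis poly(A)+ RNA of 3 KOStra8 and 3 HETStra8 mice, all 7 weeks of age, with 1 library per mouse. In KOStra8 mice 1 Sel1L allele is floxed, the other is deleted (Sel1Lflox/∆), and the Stra8-Cre transgene is present. The series record gives Sel1Lflox/∆, with Cre unnamed, for the HETStra8 littermates. The paper also counts Sel1Lflox/+ animals that have Stra8-Cre as HETStra8, and no source tells which of these genotypes each HETStra8 mouse had. A floxed allele is thus common to both groups. Stra8-Cre acts in male germ cells, and the paper describes SEL1L as retained in spermatogonia and in Sertoli cells. Because whole testis was sequenced, fewer cells of a type and less RNA per cell cannot be told apart in any value below.

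Fertilization ends with the fusion of the sperm and egg plasma membranes. IZUMO1, an immunoglobulin-like protein of the sperm, is exposed after the acrosome reaction and binds its egg receptor JUNO. SPACA6, TMEM95, DCST1 and DCST2 are sperm proteins that are also needed for fusion, and SPESP1 is a protein of the equatorial segment, the part of the sperm head where fusion begins. The genes are transcribed in spermatids, and their proteins are made in the endoplasmic reticulum (ER), where SEL1L is the adaptor of the HRD1 ubiquitin ligase in ER-associated degradation (ERAD) of misfolded proteins. The comparison therefore addresses the transcripts of a group of ER clients of spermatids, in testes with the germ cell knockout and in HETStra8 testes. The HETStra8 mice are heterozygous for Sel1L, so no wildtype testes are compared.

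The 9 genes lie on 7 chromosomes. In GRCm38, Izumo1 (ENSMUSG00000064158) lies at chr7:45621811-45628823 and Izumo2 (ENSMUSG00000066500) at chr7:44708742-44719844, both on the plus strand. Izumo3 (ENSMUSG00000028533) lies at chr4:92144329-92147234 on the minus strand, and Izumo4 (ENSMUSG00000055862) at chr10:80702184-80705373 on the plus strand. Spaca6 (ENSMUSG00000080316) lies at chr17:17827158-17843009 on the plus strand, and Tmem95 (ENSMUSG00000094845) at chr11:69876684-69878018 on the minus strand. Dcst1 (ENSMUSG00000042672, chr3:89350219-89365253, minus strand) and Dcst2 (ENSMUSG00000109293, chr3:89361975-89377549, plus strand) overlap head to head, without a shared exon base. Spesp1 (ENSMUSG00000046846) lies at chr9:62270729-62282208 on the minus strand.

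Promoter sequence was available in RefSeq (GRCm38.p6) for 8 of the 9 genes, all but Izumo4. The 250 bases before each start were searched on both strands for TGACGTCA, the palindromic cAMP response element that is bound by CREM, a transcription factor of spermatids. They were also searched for its shorter core TGACG, and for GTTGCC, the core of the X-box bound by RFX factors, which act in ciliated cells and spermatids. The upstream sequence of Izumo1 is shown because it was the only one of the 8 with the full TGACGTCA, which is in capitals and lies 89 to 96 bases before the start. The stretch between the starts of Dcst1 and Dcst2 is shown because these genes, whose products act in the same step, are transcribed away from each other from starts 65 bases apart in RefSeq.
Izumo1, chr7:45621561-45621810, plus strand: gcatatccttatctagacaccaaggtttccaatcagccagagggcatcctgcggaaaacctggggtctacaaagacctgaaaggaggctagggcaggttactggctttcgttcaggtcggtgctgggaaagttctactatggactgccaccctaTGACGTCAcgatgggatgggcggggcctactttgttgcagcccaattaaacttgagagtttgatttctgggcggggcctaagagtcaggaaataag
Dcst1-Dcst2, chr3:89365254-89365318, plus strand: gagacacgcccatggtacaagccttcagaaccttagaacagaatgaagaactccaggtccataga

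In these windows TGACGTCA is present in 508 of 32851 RefSeq promoters (1.55%). The shorter TGACG, found in 17.8% of promoters, occurred in Izumo1, inside the full element on both strands, and in Tmem95, 204 to 208 bases before the start. GTTGCC, found in 10.4% of promoters, occurred in Spesp1 at 15 to 20 bases and in Spaca6 at 48 to 53 bases before the start. No match says only that these letters are not in the window searched. The start of Dcst2 differs between annotations, since RefSeq places it at 89365319 and GENCODE at 89361975, inside the gene body of Dcst1. The stretch printed above thus lies inside the gene body of Dcst2 in GENCODE. The start of Spaca6 in RefSeq, 17830975, likewise lies inside the GENCODE gene.

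The libraries held 28875108 to 36526695 counts on genes, and the normalization factors lay between 0.990 and 1.01. Sel1l itself, the gene deleted, gave 1549, 1603 and 1413 reads in the HETStra8 testes and 846, 636 and 741 in the KOStra8 testes. Its level in CPM (counts scaled to a common library size) was 46.4 ± 3.59 (SD, n = 3) in HETStra8 and 22.2 ± 1.97 (n = 3) in KOStra8, a log2 fold change of −1.07 (edgeR's quasi-likelihood test, adjusted p = 0.00061). The markers of testis cell types were present. Summed markers of round spermatids lay at 1174 to 1273 CPM in HETStra8 and 1137 to 1216 CPM in KOStra8, and those of elongating spermatids at 16750 to 16861 CPM against 15031 to 16804 CPM. All 7 Sertoli cell markers had lower values in KOStra8, with sums of 281 to 294 CPM against 320 to 348 CPM in HETStra8, 0 past the cutoffs and 3 at an unadjusted p below 0.05. Of all 21465 genes tested, 11060 had lower values, and 1100 were lower at this p. The part of these cell type differences in the values below was not tested.

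The transcripts of the fusion genes differed little between the groups. In edgeR's quasi-likelihood test, 0 of the 9 passed the cutoffs of the study's methods, a fold of 2 and an adjusted p below 0.01, which 2 of all 21465 genes passed (0.00932%). The paper reports more genes past these cutoffs than this fit called, and its methods name no software for the test. The number of all genes past them depended on the fit, as given further on. DESeq2 and limma-voom also called 0 of the 9. At an unadjusted p below 0.05 there was 1 of the 9, Izumo3, beside 12.3% of all genes tested. There were 0 without HETStra8 mouse 1, HETStra8 mouse 2, KOStra8 mouse 2 or KOStra8 mouse 3, and 3 without HETStra8 mouse 3. The mean of KOStra8 lay between 90.6% of that of HETStra8 for Dcst1 and 121% for Izumo3. The log2 fold change was above 0 for 5 genes and below 0 for 4 (8 and 1 with the GC and length correction described further on), with a median of 0.01 over the 9 and of −0.0094 over all genes tested. The 95% interval of the log2 fold change stayed inside a 2-fold change in either direction for each of the 9. With 3 mice in each group, the smallest p of an exact permutation test is 0.1, so single genes were read from the fit across all genes. The labels give separate mice but no litters. The p-values rest on the spread between these mice, with that of each gene moderated by the fit across all genes tested.

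**Figure D1:**
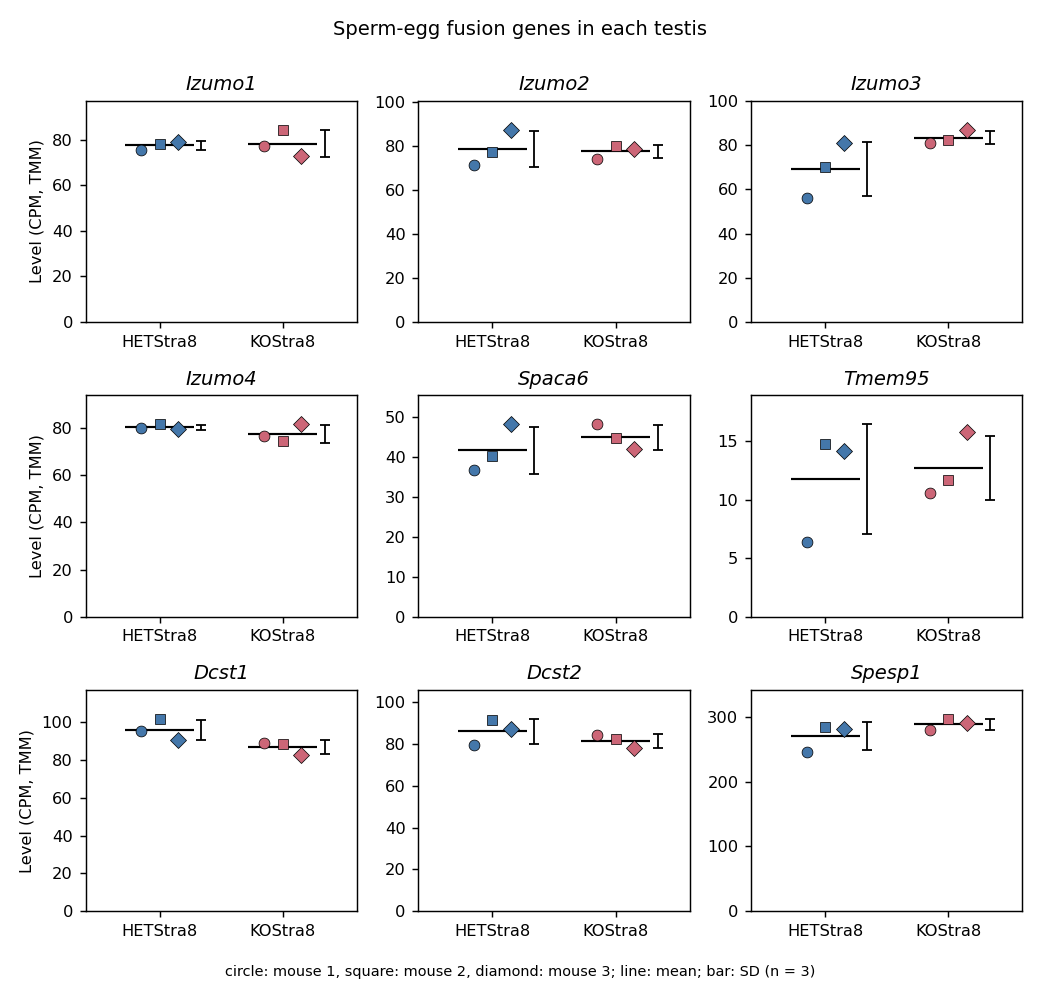
Level of each of the 9 fusion genes in CPM (vertical axis, from 0, with its own scale in each panel) in 3 HETStra8 and 3 KOStra8 mice; circles, squares and diamonds are mice 1, 2 and 3, horizontal lines are means and vertical bars are ± SD. The groups overlap for 7 genes, while the 3 KOStra8 mice lie above the 3 HETStra8 mice for Izumo3 and below them for Dcst1.

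Izumo1, the sperm ligand of JUNO, was measured at 75.5, 77.9 and 79.1 CPM in HETStra8 mice 1 to 3 and at 77.3, 84.4 and 72.7 CPM in KOStra8 mice 1 to 3. The KOStra8 mice held both the highest and the lowest value, so the groups overlapped fully. The means were 77.5 ± 1.84 and 78.1 ± 5.87 CPM (SD, n = 3 each), and the log2 fold change was 0.01 with a 95% interval of −0.16 to 0.19 (edgeR, adjusted p = 0.969). Izumo1 shares 654 exon bases, 21.9% of its own, with Rasip1 on the same strand, a gene of endothelial cells. Rasip1 had 147 to 247 counts per mouse against 2372 to 2701 for Izumo1, and its log2 fold change was −0.21 (edgeR, adjusted p = 0.695).

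Izumo2, a paralog with the same Izumo domain, stood at 71.5, 77.5 and 87.6 CPM in HETStra8 and at 74.4, 80.0 and 78.8 CPM in KOStra8. The KOStra8 values all fell within the range of HETStra8. The log2 fold change was −0.02, with an interval of −0.21 to 0.17 (edgeR, adjusted p = 0.944).

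Izumo3, a paralog known for its role in the formation of the acrosome, had 56.3, 70.3 and 80.9 CPM in HETStra8 mice 1 to 3 and 81.2, 82.2 and 87.1 CPM in KOStra8 mice 1 to 3. The KOStra8 mice were all above the HETStra8 mice, although the lowest of them exceeded HETStra8 mouse 3 by very little. The means were 69.2 ± 12.3 and 83.5 ± 3.14 CPM (SD, n = 3 each), and the log2 fold change of 0.27, with a 95% interval of 0.03 to 0.51, did not pass after adjustment (edgeR, adjusted p = 0.363). Of all genes tested, 29.7% had a larger change in either direction, and 9.33% had all KOStra8 mice above all HETStra8 mice. The value turned on single HETStra8 mice. Without mouse 1 the log2 fold change was 0.14 (edgeR, adjusted p = 0.691), and without mouse 3 it was 0.41 (edgeR, adjusted p = 0.0218).

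Izumo4, a paralog that lacks the membrane anchor of IZUMO1, lay at 80.3, 81.7 and 79.5 CPM in HETStra8 and at 76.5, 74.5 and 81.6 CPM in KOStra8. It was the steadiest of the set among HETStra8 mice, at 80.5 ± 1.11 CPM (SD, n = 3), and 1 KOStra8 mouse lay within their range. The log2 fold change was −0.05, with an interval of −0.22 to 0.11 (edgeR, adjusted p = 0.819). Mob3a, on the opposite strand, starts 207 bases from Izumo4 and had a log2 fold change of −0.23 (edgeR, adjusted p = 0.531).

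Spaca6, an immunoglobulin-like partner of IZUMO1, was measured at 36.7, 40.2 and 48.2 CPM in HETStra8 and at 48.2, 44.7 and 41.9 CPM in KOStra8. HETStra8 mouse 3 and KOStra8 mouse 1 had nearly the same level, and the groups overlapped. The log2 fold change was 0.11, with an interval of −0.12 to 0.34 (edgeR, adjusted p = 0.723). It was 0.0237 without HETStra8 mouse 1, 0.0605 without KOStra8 mouse 1 and 0.23 without HETStra8 mouse 3. The gene model also contains the microRNA genes Mir99b, Mirlet7e and Mir125a and the gene Gm25927, which had 0 to 10 counts each and were too low to test.

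Tmem95, a small membrane protein with a helical bundle like that of the Izumo domain, had the fewest counts and the widest spread of the set. It had 200, 495 and 473 counts, or 6.36, 14.7 and 14.2 CPM, in HETStra8 mice 1 to 3 and 370, 337 and 577 counts, or 10.6, 11.6 and 15.8 CPM, in KOStra8 mice 1 to 3. HETStra8 mouse 1 stood below the other 5 mice. The coefficient of variation was 39.8% in HETStra8 and 21.7% in KOStra8, whereas the other 8 genes stayed below 20% in both groups. The log2 fold change was 0.11, and its interval, −0.66 to 0.88, was the widest of the 9 (edgeR, adjusted p = 0.921). The direction turned without HETStra8 mouse 1, to −0.19, and without KOStra8 mouse 3, to −0.08, and the value was 0.30 without HETStra8 mouse 2, 0.28 without HETStra8 mouse 3 and 0.23 without KOStra8 mouse 1.

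Dcst1 and Dcst2, multi-pass proteins related to the cell fusion protein DC-STAMP, had similar counts. Dcst1 stood at 95.2, 101.7 and 90.8 CPM in HETStra8 and at 89.2, 88.5 and 82.9 CPM in KOStra8, so that all KOStra8 mice were below all HETStra8 mice, as were those of 8.43% of all genes tested. The means were 95.9 ± 5.48 and 86.9 ± 3.47 CPM (SD, n = 3 each), and the log2 fold change of −0.14, with an interval of −0.31 to 0.03, did not pass (edgeR, adjusted p = 0.480). Dcst2 stood at 79.7, 91.4 and 87.1 CPM in HETStra8 and at 84.4, 82.5 and 77.9 CPM in KOStra8, and its groups overlapped. Its log2 fold change was −0.08, with an interval of −0.25 to 0.10 (edgeR, adjusted p = 0.738). Without single mice it ranged from −0.13 to −0.0326. For both genes HETStra8 mouse 2 was the highest and KOStra8 mouse 3 the lowest. The ratio of Dcst1 to Dcst2 counts was 1.19, 1.11 and 1.04 in HETStra8 and 1.06, 1.07 and 1.06 in KOStra8, and thus between 1.04 and 1.11 in 5 of the 6 mice. The pseudogene Gm10702, on the opposite strand inside Dcst1 exons, had 0 to 6 counts.

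Spesp1, the equatorial segment protein, had the highest counts of the set, 7745 to 10582 per mouse. It was measured at 246, 285 and 282 CPM in HETStra8 and at 279.9, 296 and 289.8 CPM in KOStra8. HETStra8 mouse 1 was again the lowest, and KOStra8 mouse 1 lay within the range of HETStra8. The means were 271 ± 21.5 and 289 ± 8.16 CPM (SD, n = 3 each), with a log2 fold change of 0.09 and an interval of −0.07 to 0.25 (edgeR, adjusted p = 0.657). Without single mice it ranged from 0.0250 to 0.13.

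**Figure D2:**
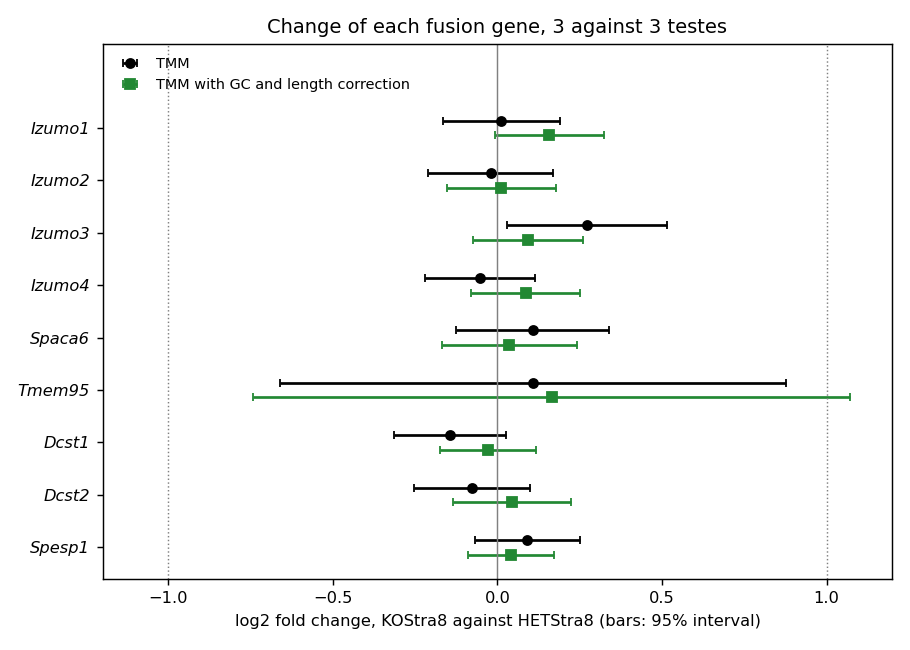
log2 fold change of KOStra8 against HETStra8 (horizontal axis) for the 9 fusion genes, with bars for the 95% interval, before (black) and after (green) correction for GC content and transcript length, and dotted lines at a 2-fold change. The values before the correction lie between −0.14 and 0.27, and the interval of Tmem95 is the widest.

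Across the 9 genes, HETStra8 mouse 1 was the lowest of the 6 mice for Izumo2, Izumo3, Spaca6, Tmem95 and Spesp1, that is 5 of 9, and was the highest for 0. Among all genes tested this mouse was the lowest for 24.7% and the highest for 25.4%. The summed level of the 9 genes was 748, 840 and 849 CPM in HETStra8 and 822, 845 and 828 CPM in KOStra8, so that the mice other than HETStra8 mouse 1 lay close together. The same mouse held 8.49 CPM of 6 summed epididymis markers, among them Crisp1 and Adam7, while the other 5 held 0 to 0.446 CPM. Lcn8 and Defb2 of that list were at 0 in all 6 mice, and 0 of the 6 passed the filter for testing. The part of this in the lower levels of HETStra8 mouse 1 was not tested, and the log2 fold changes of these 5 genes without it were −0.0873 for Izumo2, 0.14 for Izumo3, 0.0237 for Spaca6, −0.19 for Tmem95 and 0.0250 for Spesp1.

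In these libraries the fold changes ran with base composition, and the 9 genes span a wide range of it. The GC content of the longest transcript ran from 41.0% in Izumo3, 45.0% in Spaca6 and 45.3% in Spesp1 to 56.4% in Izumo4 and 58.3% in Izumo1, with a median of 52.7% over the set and 48.8% over all genes tested. Over 21457 genes of these libraries, Spearman's rho between GC content and the log2 fold change was −0.46, given as a description since genes of the same libraries are not independent replicates. When all genes were put in 10 groups of equal size by GC content, the group of Izumo3 had a median log2 fold change of 0.15. The group of Spaca6 and Spesp1 had 0.10 and that of Izumo2 −0.04. The median was −0.11 for the group of Tmem95 and Dcst1, −0.13 for that of Izumo4 and Dcst2, and −0.15 for that of Izumo1. Izumo1 and Tmem95 had values above 0, 0.01 and 0.11, in groups with medians below 0. The offsets were then corrected for the GC content of the longest transcript and the summed length of all annotated exons. For Spaca6 that length is 7067 bases, against 1073 in its longest coding transcript, and other lengths were not tried in the correction. After this correction Izumo3 had a log2 fold change of 0.09 (edgeR, adjusted p = 0.848). That of Dcst1 was −0.03 (edgeR, adjusted p = 0.958), and 0 of the 9 genes had an unadjusted p below 0.05. The range between the lowest and the highest of the 9 values was 0.414 on the log2 scale before the correction and 0.192 after it. After the correction Izumo1 had the smallest adjusted p of the set, at a log2 fold change of 0.16 (edgeR, adjusted p = 0.683), and the interval of Tmem95 reached 1.07, past a 2-fold change.

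**Figure D3:**
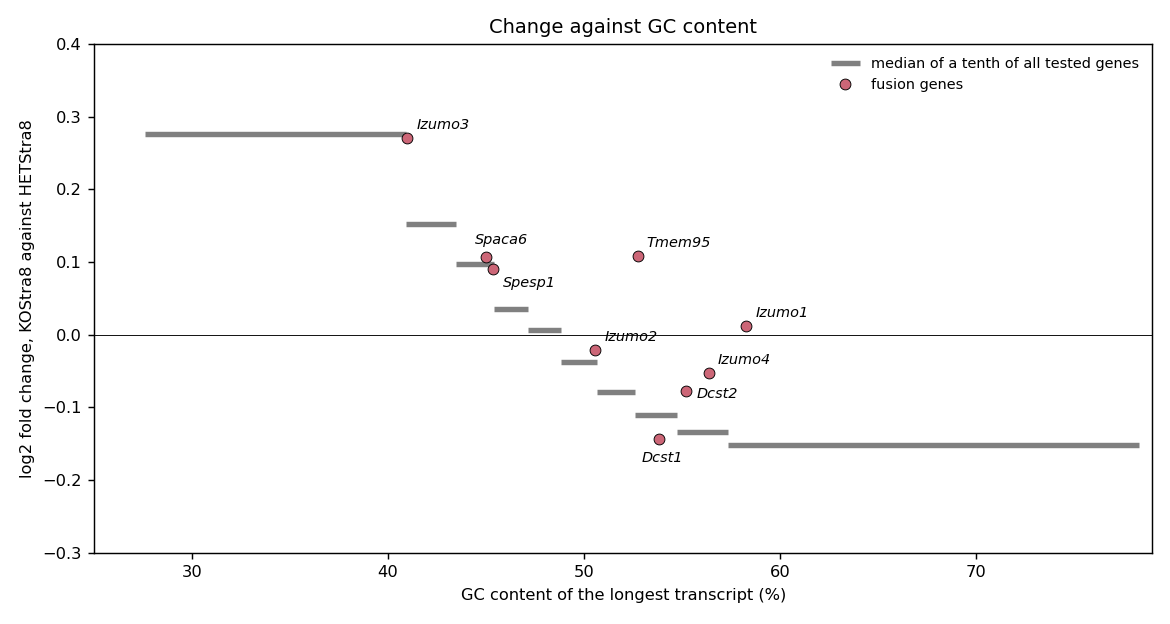
log2 fold change of KOStra8 against HETStra8 (vertical axis) against the GC content of the longest transcript in percent (horizontal axis) for the 9 fusion genes (points); grey bars are the medians of 10 equal groups of all tested genes ordered by GC content, each spanning the GC range of its group. The medians fall from 0.28 in the group lowest in GC to −0.15 in the highest, and Izumo3, at 41.0% GC, is the highest point of the set.

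The levels of the genes were compared with each other per length, as CPM per kilobase of all annotated exons, over the 6 mice. Izumo2 was highest at 108 ± 7.61, followed by Spesp1 at 92.0 ± 5.72, Izumo3 at 60.3 ± 8.89 and Dcst2 at 36.7 ± 2.16 (SD, n = 6 each). The ranges of these 4 genes did not overlap with each other or with the gene next below. Izumo4 at 28.2 ± 1.04, Izumo1 at 26.0 ± 1.31, Tmem95 at 23.0 ± 6.54 and Dcst1 at 17.4 ± 1.23 followed, each overlapping in range with its neighbours among these 4, and Izumo1 was above Tmem95 in 3 of 6 mice. Spaca6 came last at 6.13 ± 0.65, below the other 8 in every mouse. Izumo2 exceeded 97.6% of all genes tested on this scale and Spaca6 66.0%.

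The order depended on the length used. The annotated exons of Spaca6 sum to 7067 bases over 16 transcripts, of which 3 are coding, while its longest coding transcript has 1073 bases. Per kilobase of the longest coding transcript, a choice added after the first results, Spaca6 was at 40.4 ± 4.26, and its range overlapped with that of Dcst1 at 39.0 ± 2.75. Izumo2 at 124 ± 8.71 and Spesp1 at 92.0 ± 5.72 were again the highest and were in this order in 6 of 6 mice. Izumo4 at 66.1 ± 2.42 and Izumo1 at 52.1 ± 2.62 moved up, and Tmem95 at 23.0 ± 6.54 was the lowest. Per kilobase of the median coding transcript, likewise added later, Spaca6 moved further up, to 91.4 ± 9.65, and overlapped in range with Spesp1 at 92.0 ± 5.72, which was above it in 4 of 6 mice. Izumo2 was first on this scale too, at 139.6 ± 9.82, and Tmem95 last. The counts do not tell which transcripts of a gene were present.

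**Figure D4:**
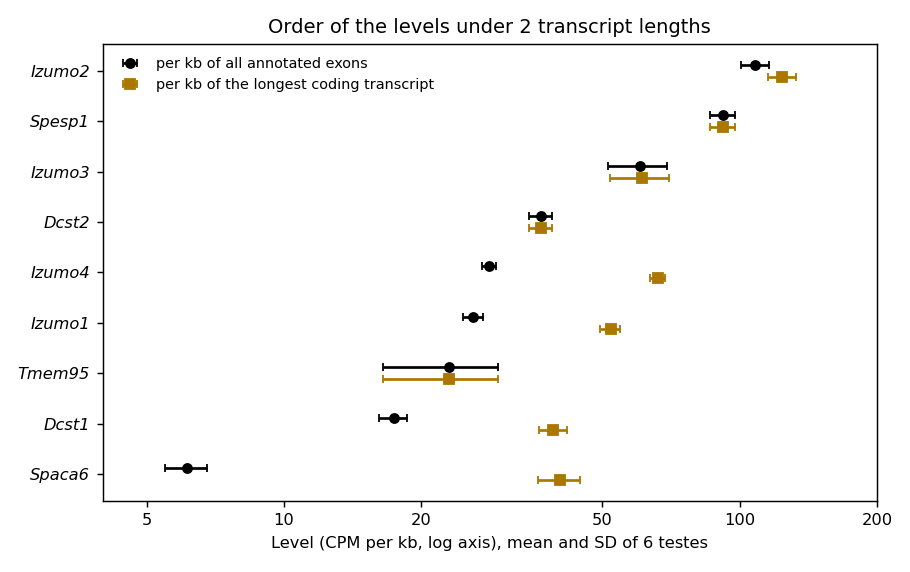
Level of each fusion gene in CPM per kilobase (logarithmic axis) in the 6 mice, per length of all annotated exons and per length of the longest coding transcript; points are means and bars the SD (n = 6). Izumo2 and Spesp1 are the highest on both scales drawn, while Spaca6 is lowest on the first only, at 6.13 against 40.4 on the second.

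Other sperm genes of binding and fusion were also close between the groups. Of 25 listed partners, 23 were tested and 0 passed the cutoffs, with 9 values above and 14 below 0 and a median log2 fold change of −0.08. At an unadjusted p below 0.05, KOStra8 was higher for 1 and lower for 3, beside 1530 and 1100 of all 21465 genes tested. The most abundant per length was Atp8b3, a phospholipid flippase of the acrosome, with a log2 fold change of −0.19 (edgeR, adjusted p = 0.352). Ace, whose testis form is needed for sperm function, had −0.16 (edgeR, adjusted p = 0.326), and Crisp2, an acrosomal and tail protein, had 0.27 (edgeR, adjusted p = 0.361). Tmem81, the third sperm protein of the complex of IZUMO1 and SPACA6, had means of 19.5 CPM in HETStra8 and 20.7 CPM in KOStra8, and Llcfc1, also needed for fusion, had 160.1 and 151 CPM. With the GC and length correction the median of the list was −0.03, and 1 gene had an unadjusted p below 0.05, with a lower value.

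Of 20 genes of the acrosome, the vesicle that covers IZUMO1 until it is released, 20 were tested and 0 passed the cutoffs. Their median log2 fold change was −0.05, with 7 above and 13 below 0, beside 10405 and 11060 of all 21465 genes tested. An unadjusted p below 0.05 was found for 3 with higher and 2 with lower values, beside 1530 and 1100 of all genes. After the GC and length correction it was found for 0 of either. The direction of the list's median was not stable: it was 0.0158 with that correction, 0.00771 without HETStra8 mouse 3 and 0.0203 without KOStra8 mouse 1. Dkkl1, the most abundant per length, had −0.14 (edgeR, adjusted p = 0.426). Iqcn had −0.19 (edgeR, adjusted p = 0.298), Tcp11 had −0.16 (edgeR, adjusted p = 0.342), and Gopc, a Golgi protein needed for acrosome formation, had 0.21 (edgeR, adjusted p = 0.379).

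Of 19 genes listed for the folding of sperm membrane proteins in the ER, 18 were tested and 0 passed the cutoffs. The list also holds Rnf133 and Ube2j1, which the paper calls ERAD-related, with log2 fold changes of −0.02 and −0.06. The median log2 fold change was 0.04, and −0.0147 with the GC and length correction, which turned its direction. Without the correction 11 values were above and 7 below 0, beside 10405 and 11060 of all 21465 genes tested. The 2 with an unadjusted p below 0.05, found for 12.3% of all genes, were both higher. Those were Hsp90b1, the ER form of HSP90, at 494 ± 30.8 CPM in HETStra8 and 599 ± 22.5 CPM in KOStra8 (SD, n = 3 each), and Hspa5, the chaperone BiP, at 544 ± 8.03 and 602 ± 13.5 CPM. The groups did not overlap for either gene. Such a separation with KOStra8 higher was found for 3 genes of the list and 9.33% of all genes tested. With KOStra8 lower it was found for 2 of the list, P4hb and Ube2j1, and for 8.43% of all genes tested. The log2 fold changes of Hsp90b1 and Hspa5, 0.28 and 0.15, did not pass (edgeR, adjusted p = 0.150 and 0.367). After the GC and length correction they were 0.14 and 0.10 (edgeR, adjusted p = 0.581 and 0.676), and 1 gene of the list had an unadjusted p below 0.05. For BiP the paper reports unchanged transcripts, by qPCR in young and old mice and by RNA sequencing. It also reports no significant change in the proteins BiP and GRP94, the latter encoded by Hsp90b1. Clgn, the testis chaperone calmegin and the most abundant of the list per length, had 0.14 (edgeR, adjusted p = 0.430), and P4hb, a protein disulfide isomerase, had −0.21 (edgeR, adjusted p = 0.414).

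Transcripts of JUNO, of the zona pellucida, and of Astl and Bmp15 were at or near 0 in these testes, while Cd9, Cd81 and Gdf9 of the egg side were present. Izumo1r, which encodes JUNO, had 0 counts in all 6 libraries, which allows a level of up to 0.0822 to 0.104 CPM for counting error alone (3 counts per library). Of 9 listed genes, 3 passed the filter on low counts, and all 3 had values below 0, with a median of −0.32. An unadjusted p below 0.05 was found for 2 of the 3, Cd81 and Gdf9, and for 1 with the GC and length correction, while 0 passed the cutoffs. Of all 21465 genes tested, 11060 had values below 0, and 12.3% had such a p without the correction. Cd81, at 42.4 ± 6.36 CPM in HETStra8 (SD, n = 3) and 80.3% of that in KOStra8, overlapped between the groups. Gdf9 lay at 11.7 ± 0.0648 CPM in HETStra8 and 9.53 ± 0.352 CPM in KOStra8 (SD, n = 3 each). All KOStra8 mice were below all HETStra8 mice for this gene, as for 8.43% of all genes tested. Cd81 and Cd9, tetraspanins that are also expressed outside the egg, had log2 fold changes of −0.32 and −0.33 (edgeR, adjusted p = 0.312 and 0.672), and Gdf9, an oocyte growth factor gene that is also transcribed in the testis, had −0.30 (edgeR, adjusted p = 0.381). The zona pellucida genes Zp1, Zp2 and Zp3 had 0 to 13 counts per library, Astl had 0 to 2 and Bmp15 had 0 to 10.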

How the data were processed

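Directional paired-end libraries of poly(A)+ RNA came from 6 testes. For each mouse the authors deposited raw counts, whole numbers of reads per Ensembl gene, without normalization. The submitters' processing notes name mm10 and GRCm38 and list STAR 2.7.1a, featureCounts 1.6.0 and HTSeq among the tools, without their roles. The strand setting of the counting is not given in the sources used here, so reads from overlapping genes on opposite strands may be assigned to either.

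All 55536 identifiers matched GENCODE M21 (GRCm38), which gave symbols, positions, exon lengths and GC content. The test was that of edgeR 4.0.16 in R 4.3.3 (filterByExpr, TMM, robust quasi-likelihood fit on genotype, two-sided F test, Benjamini-Hochberg adjustment over 21465 genes). Levels are TMM-normalized CPM. A gene was called past a 2-fold change at an adjusted p below 0.01. The library totals of 28875108 to 36526695 counts set the counting error, and the biological coefficient of variation was 0.160. The GC and length correction used a loess curve per library (span 0.3, genes above a log2 CPM of 2). Other alternatives were DESeq2 1.42.0, limma-voom (limma 3.58.1), other scalings and filters, the replicate number as a block and leaving out each mouse. The steps were tested on simulated data. Promoter sequences are those of RefSeq.

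The 9 genes and the lists were chosen with earlier results of these data known. Named from each list were the most abundant gene per length and the 3 with the smallest p. Also named were Sel1l, genes overlapping or starting within 1000 bases of a fusion gene, and the 5 genes most like Izumo1 over the mice. Tmem81, Llcfc1, Rnf133, Ube2j1, Astl, Bmp15, the zona pellucida genes, Izumo1r and the epididymis markers are named outside this rule, with their values seen. Fimp and Frey1 matched no symbol of the annotation, and their older symbols, 4930451I11Rik and 1700029I15Rik, were listed beside them.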

Additional observations from a re-analysis of the deposited data

How the results depend on the processing

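Under 15 alternatives, 6 of which left out 1 mouse, 0 of the 9 fusion genes passed the cutoffs. The number with an unadjusted p below 0.05 was 1, and it was 0 with the GC and length correction, with or without the replicate block, and 0 to 3 without single mice (0 without HETStra8 mouse 1 or 2 or KOStra8 mouse 2 or 3). The 3, without HETStra8 mouse 3, were Izumo3, Spaca6 and Dcst1. Of 135 values for the 9 genes under the alternatives, 123 kept their direction. With the GC and length correction Izumo2, Izumo4 and Dcst2 were at 0.0122, 0.0865 and 0.0450 on the log2 scale, and with the replicate block in addition at 0.0158, 0.0850 and 0.0499. Without single mice Izumo1 ranged from −0.0407 to 0.0610, Izumo2 from −0.0873 to 0.0714 and Tmem95 from −0.19 to 0.30. The medians of the acrosome and ER folding lists changed sign with the GC and length correction, to 0.0158 and −0.0147. Izumo3 kept a positive value under all 15 alternatives, from 0.09 to 0.41, with adjusted p values of 0.0218 to 0.874, and Dcst1 a negative one, from −0.17 to −0.03, with adjusted p values of 0.242 to 0.973.

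Among all genes, 2 passed the cutoffs, against 5 at an adjusted p of 0.05 with any fold, 39 without a filter on low counts, 6 with DESeq2, 5 with the replicate block, and 1 to 44 without single mice (44 without HETStra8 mouse 3, 9 without HETStra8 mouse 1, 4 without KOStra8 mouse 1, and 1 without KOStra8 mouse 2 or 3). The 2630 genes with an unadjusted p below 0.05 became 1630 with the GC and length correction, 1576 with the replicate block in addition, and 1444 (without KOStra8 mouse 3) to 4375 (without HETStra8 mouse 3) without single mice. The causes were not tested. For mice with the same number in both groups, the correlations between their deviations from the group means were −0.07, −0.12 and 0.18. These values do not show that the numbers pair the mice, and with 3 mice in each group they cannot exclude it. The replicate block left the number of fusion genes with an unadjusted p below 0.05 at 1. Depth is lowest for Tmem95, with 200 to 577 counts per mouse.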

Other observations

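The genes whose levels ran most like that of Izumo1 over the 6 mice, among 10012 genes with a mean of at least 10 CPM, were Map10, Gm4665, Dusp1, 4933431G14Rik and 4933434M16Rik. Their Pearson correlations in log2 CPM were 0.993, 0.967, 0.962, 0.953 and 0.942, given as a description over 6 points that share library and depth effects and picked as the highest of many. Map10, a microtubule-associated protein, was at 52.5 ± 0.966 CPM in HETStra8 and 52.9 ± 3.04 CPM in KOStra8 (SD, n = 3 each). As it was picked by this correlation, its wider spread among KOStra8 mice, as in Izumo1, adds nothing to the correlation. Of the other somatic markers, all 6 of Leydig cells and all 4 of peritubular myoid cells had values below 0 in KOStra8, as had 11060 of all 21465 genes tested. The median log2 fold changes of these lists were −0.29 and −0.13, with 0 past the cutoffs. In edgeR's test 1 gene of each list had an unadjusted p below 0.05, beside 12.3% of all genes tested. The 5 macrophage markers had a median of −0.11. Germ cell marker lists had medians of 0.05 for spermatogonia, 0.03 for leptotene and zygotene spermatocytes, −0.02 for pachytene and diplotene spermatocytes, −0.05 for round spermatids and −0.04 for elongating spermatids. Within the pachytene and diplotene list the markers went far apart. Sycp1, of the synaptonemal complex, had 70.9, 119.7 and 186 CPM in HETStra8 and 261, 247 and 228 CPM in KOStra8, a log2 fold change of 0.97 (edgeR, adjusted p = 0.424), and Sycp3 had 0.49 (edgeR, adjusted p = 0.528). Their GC contents, 34.6% and 34.3%, fall in the group lowest in GC, whose median log2 fold change was 0.28. The rest of this marker list lay between −0.15 and 0.0043. Of the 9 elongating spermatid markers, 8 had values below 0 and 2 had an unadjusted p below 0.05, Gapdhs at −0.20 (edgeR, adjusted p = 0.245) and Oaz3 at −0.17 (edgeR, adjusted p = 0.282). These 4 markers were chosen after their values were seen. The part of these differences in the levels of the fusion genes was not tested.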
